A study of Mus musculus with 24 samples.

Results

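The 38 genes described here are fibroblast and extracellular matrix genes, taken from a fixed list of symbols and located at their mm10 positions among 21887 protein-coding genes. They were sorted by the known role of their product into 10 groups: fibrillar, basement membrane and microfibrillar collagens, matrix glycoproteins, matricellular proteins, proteoglycans, crosslinking oxidases, proteases with their inhibitors, receptors with surface proteins, and intracellular fibroblast markers. A gene was said to hold MEF2C in a library when a peak touched its body or the 5 kb beyond either gene end by 1 bp or more. All 38 symbols were found in the gene table, with bodies of 2.28 to 206 kb.

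Fibroblasts make and remodel the matrix between cells. They secrete collagen chains that assemble into fibrils or sheets, enzymes that crosslink them, proteases that cut them, and matricellular proteins that bind matrix and growth factors and signal to cells without bearing load. MEF2C is a MADS-box transcription factor of the muscle lineages, H1.0 is a linker histone that binds nucleosomes and compacts chromatin, and H3K9me3, a methylated form of histone H3, marks heterochromatin. Occupancy of matrix genes matters in cardiac reprogramming because these genes make up much of the fibroblast programme that the cells would have to leave.

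The cells were a mouse embryonic fibroblast line named iMGT-Myh6-eGFP-MEF, in which Mef2c, Gata4 and Tbx5 can be induced and eGFP reports Myh6, a cardiac myosin gene. CUT&RUN, in which an antibody guides a nuclease to cut out the DNA around its target, was run for MEF2C on cells transfected with siControl (n = 2), siJunb (n = 3) or siH1f0 (n = 3), all plated at 300000 cells per well, given 1 µg/mL doxycycline and collected at day 1. It was run for H1.0 and for H3K9me3 on ground-state cells without reprogramming (n = 2 each) and on siControl cells at day 1 (n = 2 each). All MEF2C libraries therefore came from induced cells that carry the MEF2C transgene, and ground state and day 1 differed in plating, transfection and doxycycline together, which cannot be told apart. All groups shared 1 line, and expression of fibroblast markers, of Junb and of H1f0 was not measured here, so neither the cell type nor the knockdowns were checked. MEF2C lists held 11731 to 49011 peaks. The 3 lists whose file names start with M (siControl replicate 1, siJunb replicate 1 and siH1f0 replicate 3, 1 per condition) covered 13.4 to 22.5 Mb, and the other 5 covered 56.4 to 89.8 Mb. What the file names stand for was not given, and results that rest on those 3 lists are given with and without them.

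In siControl cells, MEF2C lay at more of the matrix genes than of genes in general. In siControl replicate 1 it was held by 20 of the 38 genes (52.6%, against 30.1% of all protein-coding genes), and in replicate 2 by 34 (89.5%, against 49.2%). Under siJunb the numbers were 22, 31 and 28 in replicates 1 to 3, and under siH1f0 33, 32 and 27. The share was above that of all genes in each of the 8 libraries. The mean was 27 ± 9.9 genes under siControl (SD, n = 2), 27 ± 4.58 under siJunb (SD, n = 3) and 30.7 ± 3.21 under siH1f0 (SD, n = 3), so that the ranges overlapped. With every list reduced to its 11731 highest peaks, 19 and 23 genes held MEF2C under siControl, 22, 23 and 23 under siJunb, and 24, 27 and 25 under siH1f0. The share of all genes was then 25.2 to 29.8%. In these reduced lists every siH1f0 number lay above those of the other conditions, and this difference was not tested. The matrix genes are longer than most, with a median body of 33.9 kb against 17.2 kb, and a longer body has more room for a peak. The part of gene length in the difference was not tested.

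**Figure D1:**
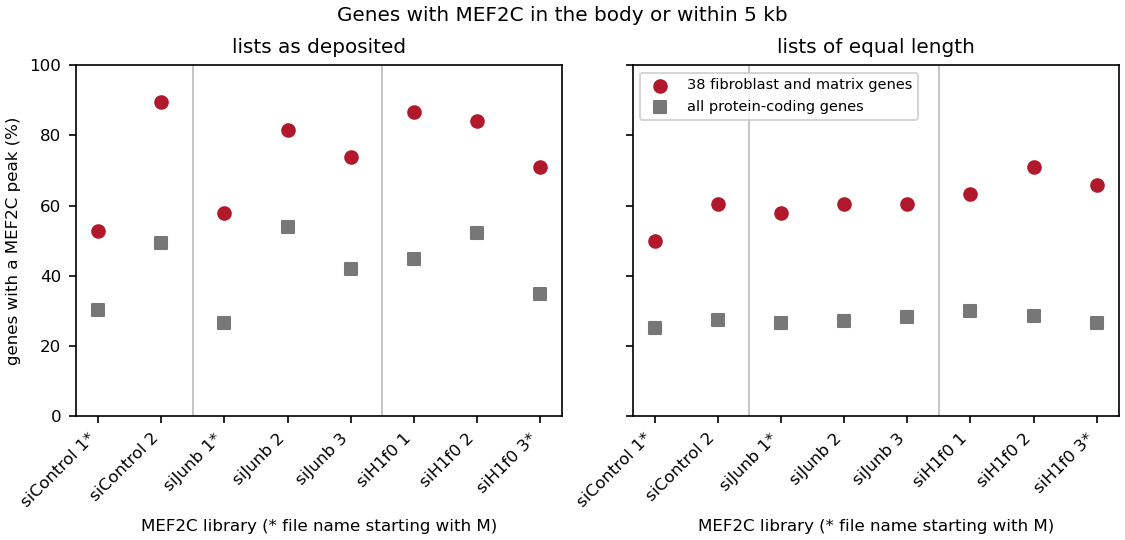
Share of genes with a MEF2C peak in the body or within 5 kb (vertical axis, %) in each of the 8 MEF2C libraries, with lists as deposited (left) and cut to 11731 peaks each (right). Red circles are the 38 matrix genes and grey squares all protein-coding genes, and the red circle lies above the grey square in every library.

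Both siControl libraries held MEF2C at 20 of the 38 genes, beside 28.4% of all protein-coding genes. All 8 libraries held it at 12 genes, beside 16.1%: Col4a1, Col4a2, Col5a2, Ccn1, Ccn2, Thbs1, Timp3, Pdgfra, Pdgfrb, Ddr2, Vim and S100a4. A further 10 genes held it in 7 libraries, and only Lum and Bgn held it in none, beside 31.6% of all genes. Without the 3 short lists, 25 of the 38 genes held MEF2C in all 5 remaining libraries, beside 30.1%. When the interior of the body was left out and only the 5 kb around each gene end counted, 9 genes remained in all 8 libraries, beside 10.1%. Col4a1, Col4a2 and Pdgfrb dropped out, since their shared MEF2C lay deep inside the gene.

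To set peaks from lists of different length side by side, the highest peak at each gene is given as a percentile of maximum signal within its own list, where 100 is the top. These peak scores are the authors' own values and serve only to rank peaks inside a list. Values are given in the order of the replicates.

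**Figure D2:**
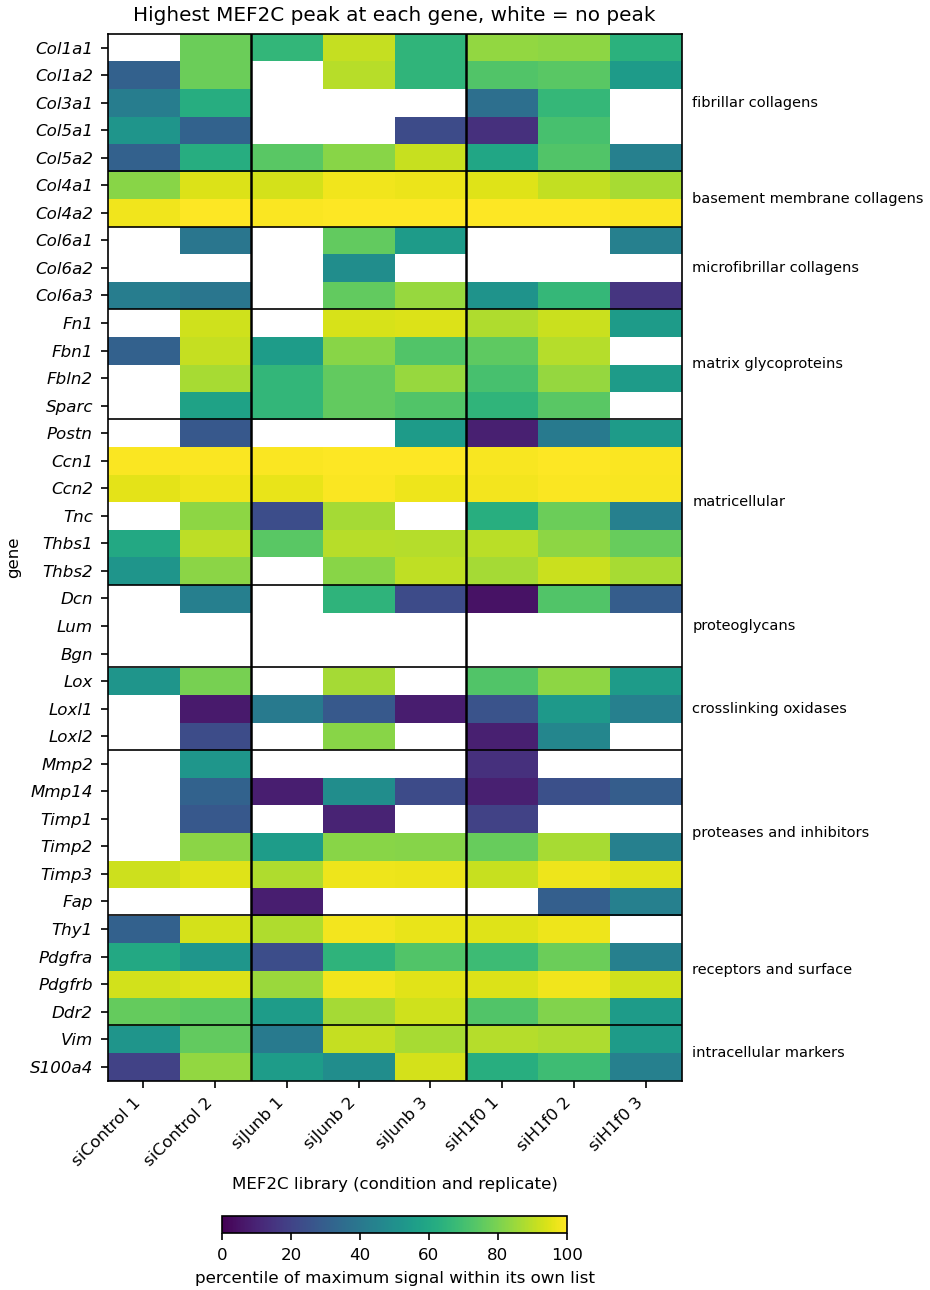
Percentile of the highest MEF2C peak within its own list (colour, 0 to 100) for the 38 genes (rows, by role) in the 8 MEF2C libraries (columns, by condition). White cells hold no peak; Ccn1, Ccn2 and Col4a2 are above the 95th percentile in every library, and the rows of Lum and Bgn are empty.

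The 4 stretches of sequence before annotated start sites are shown, from a start site under MEF2C in every library to one under it in 2. RefSeq promoter windows (250 bases before to 50 after the start site, GRCm38.p6) were at hand for 24 of the 38 genes, and among these Vim alone had its window under MEF2C in all 8 libraries, while Ccn1 had it in 7, Thbs2 in 6 and Col3a1 in 2, the last 3 being chosen after their values were seen. They are printed 5′ to 3′ on the coding strand, ending at the base before the start site, with capitals marking matches to the searched motifs. Vim lies at chr2:13574061-13574310 on the plus strand, Ccn1 at chr3:145649986-145650235 on the minus strand, Thbs2 at chr17:14694263-14694512 on the minus strand and Col3a1 at chr1:45311288-45311537 on the plus strand.
Vim: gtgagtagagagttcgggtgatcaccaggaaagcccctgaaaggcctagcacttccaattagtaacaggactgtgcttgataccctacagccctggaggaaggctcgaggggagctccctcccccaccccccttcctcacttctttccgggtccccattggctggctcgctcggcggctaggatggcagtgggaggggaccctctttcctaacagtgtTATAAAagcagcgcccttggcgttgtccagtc
Ccn1: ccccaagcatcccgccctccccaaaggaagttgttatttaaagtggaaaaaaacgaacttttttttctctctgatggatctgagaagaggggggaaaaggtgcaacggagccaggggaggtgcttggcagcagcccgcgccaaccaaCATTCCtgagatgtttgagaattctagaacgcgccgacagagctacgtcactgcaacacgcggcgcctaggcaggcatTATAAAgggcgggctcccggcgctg
Thbs2: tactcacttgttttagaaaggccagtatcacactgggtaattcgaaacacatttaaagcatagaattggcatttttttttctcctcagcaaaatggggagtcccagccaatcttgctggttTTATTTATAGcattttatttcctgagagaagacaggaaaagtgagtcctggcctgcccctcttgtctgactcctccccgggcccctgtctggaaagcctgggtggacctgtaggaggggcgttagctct
Col3a1: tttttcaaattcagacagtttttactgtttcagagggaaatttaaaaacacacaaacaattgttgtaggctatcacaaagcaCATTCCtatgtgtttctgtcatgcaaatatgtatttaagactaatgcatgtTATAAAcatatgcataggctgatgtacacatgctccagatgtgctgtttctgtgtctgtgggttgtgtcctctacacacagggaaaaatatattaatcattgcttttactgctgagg

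Both strands of the whole windows were searched for 6 motifs. The first 2 were the MEF2 consensus and the CArG box of serum response factor, given by name. The AP-1 motif was spelled TGANTCA. The TEAD motif, for the partners of YAP, was spelled GGAATG. For the TATA box the letters were TATAAA, and for GATA factors they were TGATAA. Positions count from the start site and give the first base of the match on the coding strand. Vim held a TATA box at -32. Ccn1 held a TEAD match at -103 and a TATA box at -25. Thbs2 held the only MEF2 consensus among the 27 windows of the 24 genes with an entry, at -129, where it overlapped a TATA match at -126, while 2.74% of 21263 windows of that length held the consensus. Col3a1 held a TEAD match at -168 and a TATA match at -117. Across the 27 windows, 4 held the TEAD letters (13.6% of all windows), 9 the TATA letters (12.6%), 1 the AP-1 letters, at Col6a1 (6.99%), and none the CArG box (1.52%) or the GATA letters (7.6%). A match is a description of the letters and not a bound site.

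Cover of the promoter windows varied with the library, where a window counted as under a peak at an overlap of 1 bp or more. Under siControl, 3 of the 24 windowed genes (12.5%, beside 10.9% of all genes with a window) had the window under MEF2C in replicate 1 and 10 (41.7%, beside 29.5%) in replicate 2. Under siJunb the numbers were 3 (12.5%, beside 9.35%), 7 (29.2%, beside 21.5%) and 5 (20.8%, beside 19.1%). Under siH1f0 they were 16 (66.7%, beside 29.4%), 14 (58.3%, beside 32.1%) and 3 (12.5%, beside 15.1%). The share was thus near the background in the 3 short lists and furthest above it in siH1f0 replicates 1 and 2, and the difference between conditions was not tested for these windows. The window was free of MEF2C in all 8 libraries for 6 of the 24 genes (25%), beside 57.1% of genes with such a window, and under MEF2C in all 8 for 1 (4.17%), beside 3.78%. Merging overlapping peaks of the 8 lists gave 166 regions in the bodies and 5 kb margins of the matrix genes. Of these, 22 (13.3%) were held by all 8 libraries, beside 6.06% of the 53607 regions at all protein-coding genes, and 68 (41%) by a single library, beside 54.1%. The 22 shared regions had a median width of 7937.5 bp, beside 5556.5 bp for shared regions at all genes. Col4a2 held 5 of the 22, and Col4a1 and Timp3 held 3 each, so these regions are not separate genes.

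Among the 6 matricellular genes, Ccn1 and Ccn2 stood near the top of every list. Ccn1 (chr3:145646971-145649985) and Ccn2 (chr10:24595442-24598683) encode secreted signalling proteins of the CCN family, known as early targets of YAP and of serum response factor, and Ccn2 is known for promoting fibrosis. The highest Ccn1 peak was at percentile 99.3 and 99.6 under siControl, 99.4, 99.8 and 99.8 under siJunb, and 99.2, 99.7 and 99.4 under siH1f0. In rank it lay between the 55th and the 183rd highest maximum signal of its list. The Ccn2 percentiles were 95.8 and 97.6 under siControl, 96.8, 99.4 and 97.6 under siJunb, and 98.4, 99.3 and 99.1 under siH1f0. The 3 conditions overlapped at both genes, except that all siH1f0 values of Ccn2 lay above both siControl values by little. Together with Col4a2 they were the only matrix genes at or above the 95th percentile in all 8 libraries, beside 1.12% of all genes.

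The merged Ccn1 region (chr3:145643692-145654310) covered the start site and the whole gene, with the promoter window under MEF2C in 7 libraries. The Ccn2 region (chr10:24578606-24611247) merged to 32642 bp, about the gene and both its flanks. Thbs1 encodes thrombospondin 1, which activates latent TGF-beta, and its region (chr2:118108860-118117651) reached over one gene end. It stood at percentile 60.2 and 90.0 under siControl, 74.4, 89.4 and 88.7 under siJunb, and 89.5, 83.1 and 76.6 under siH1f0. Thbs2, its relative thrombospondin 2, had peaks at percentile 52.2 and 82.5 under siControl and 86.5, 91.9 and 86.9 under siH1f0, while siJunb replicate 1 had none and replicates 2 and 3 stood at 82.4 and 90.3. Postn encodes periostin, a protein of activated fibroblasts. It held MEF2C in siControl replicate 2 (percentile 27.4), siJunb replicate 3 (54.9) and all siH1f0 libraries (8.96, 41.0 and 55.0). All these peaks fell in 1 region merged across the start site (chr3:54357125-54360860). The siH1f0 replicate 3 peak did not reach the promoter windows of Postn. Tnc, encoding tenascin C, held it in 6 libraries.

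The basement membrane collagens Col4a1 (chr8:11198423-11312889) and Col4a2 (chr8:11312805-11449287) are neighbours that run in opposite directions from 1 shared start region, and their chains form the type IV network. MEF2C lay inside both genes in all 8 libraries, yet over the shared start it was found in 2 libraries only, siH1f0 replicates 1 and 2 (percentile 25.5 and 24.4, chr8:11311171-11314453). Col4a2 held 21 regions, 5 of them in all 8 libraries, and Col4a1 held 16, 3 of them in all 8. The strongest Col4a2 region (chr8:11321335-11325438) was centred 10.6 kb downstream of the start site. Its percentiles were 97.6 and 99.9 under siControl, 99.3, 99.9 and 99.8 under siJunb, and 99.9, 99.9 and 99.4 under siH1f0. Other Col4a2 regions in all 8 libraries were centred 62.3, 72.2, 84.0 and 107 kb from the start, and the one at 84.0 kb (chr8:11391735-11401838) had a median percentile of 99.1. The highest Col4a1 peak was at percentile 82.2 and 94.7 under siControl, 93.5, 98.0 and 97.1 under siJunb, and 95.1, 90.7 and 86.9 under siH1f0.

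**Figure D3:**
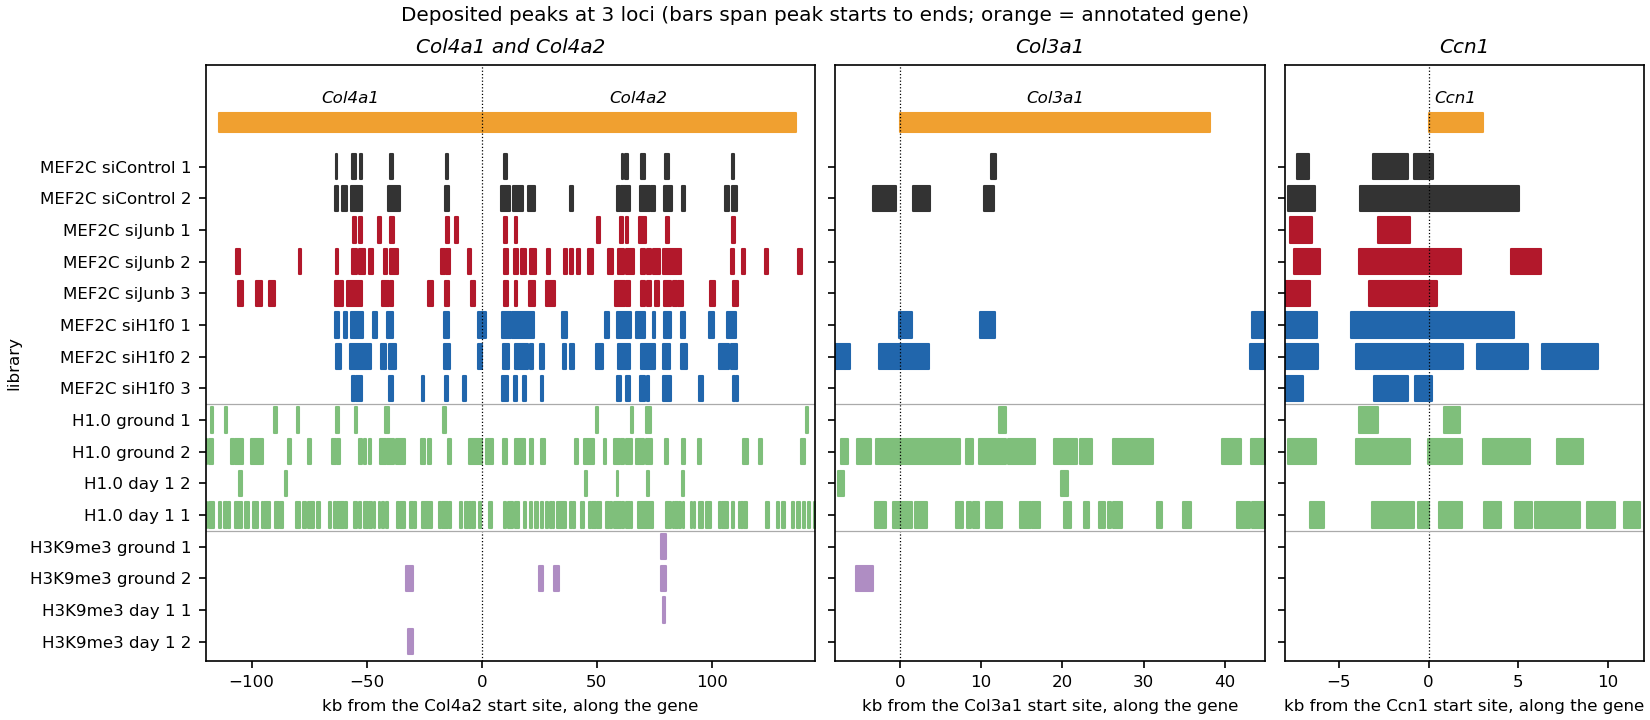
Deposited peaks (bars, from start to end) of all 16 libraries (rows) along Col4a1 and Col4a2, Col3a1 and Ccn1, in kb from the start site named under each panel, with annotated genes in orange. MEF2C bars recur inside Col4a1 and Col4a2 at the same places in all 8 libraries, no siJunb library has a bar over Col3a1, and every MEF2C library has a bar at or just upstream of Ccn1.

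The 5 fibrillar collagen genes encode the chains of the tension-bearing fibrils. Both siControl libraries held MEF2C at 4 of them and all 8 libraries at 1, Col5a2. Col1a1 and Col1a2, whose chains form type I collagen, held it in 7 libraries each. Col1a1 had no peak in siControl replicate 1 and stood at percentile 77.7 in replicate 2, 66.1, 91.3 and 65.4 under siJunb and 83.7, 83.1 and 64.0 under siH1f0. Col1a2 stood at 31.2 and 77.7 under siControl, had no peak in siJunb replicate 1, then 89.4 and 65.4, and stood at 73.0, 74.6 and 55.0 under siH1f0. The merged Col1a2 region (chr6:4505062-4509328) covered the start site, and the promoter window lay under MEF2C in 5 libraries. The gaps at Col1a1 and Col1a2 both fell in short lists, and neither gene separated the conditions.

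Col3a1 and Col5a1 were held less evenly. Col3a1 (chr1:45311538-45349706), the type III collagen of soft connective tissue, held MEF2C in both siControl libraries at percentile 42.4 and 62.2, in siH1f0 replicates 1 and 2 at 36.7 and 66.5, and in no siJunb library. Its siControl peaks shared a region inside the gene (chr1:45321411-45323409), 10.9 kb from the start site. A second region, merged across the start site (chr1:45308250-45315270), was held by siControl replicate 2 and siH1f0 replicates 1 and 2. Only the siH1f0 peaks in it reached the promoter window, and the siControl replicate 2 peak did not. Col5a1, the chain that nucleates fibrils, stood at 52.2 and 31.6 under siControl. It had no peak in siJunb replicates 1 and 2 and siH1f0 replicate 3, and stood at 22.8 in siJunb replicate 3 and 14 and 70.9 in siH1f0 replicates 1 and 2. Its region just past the start (chr2:27886435-27890475) was held by both siControl libraries, no siJunb library and siH1f0 replicates 1 and 2, and the siJunb replicate 3 peak lay elsewhere in the gene. Col5a2, which pairs with the Col5a1 chain, went the other way, at 31.2 and 62.2 under siControl, 74.4, 82.4 and 91.6 under siJunb, and 59.2, 72.9 and 43.4 under siH1f0. Here all siJunb values lay above all values of the other conditions, in a region across a gene end (chr1:45499572-45505418).

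The 3 collagen VI genes, whose chains make beaded microfibrils around cells, differed among themselves. Col6a1 held MEF2C in 4 libraries and Col6a2 in 1 (siJunb replicate 2), while Col6a3 held it in 7, with percentiles from 15.4 to 84.7. The 4 matrix glycoproteins held it in 6 or 7 libraries each and none in all 8. Fn1, encoding fibronectin, had no peak in siControl replicate 1 and siJunb replicate 1. It stood at 92.8 in siControl replicate 2, 93.9 and 94.9 in siJunb replicates 2 and 3, and 88.1, 91.9 and 55.0 under siH1f0, in a region across a gene end (chr1:71648940-71655522). Fbn1 (fibrillin 1, the backbone of elastic microfibrils) and Fbln2 (fibulin 2) held MEF2C in 7 libraries and Sparc (osteonectin, a collagen-binding glycoprotein) in 6. The Fbln2 region 3.53 kb before the gene (chr6:91201075-91208933) was present in all 8 libraries, but the siControl replicate 1 peak in it lay beyond the 5 kb margin.

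Proteoglycans were the group with the least MEF2C. Lum (lumican) and Bgn (biglycan), small leucine-rich proteoglycans that bind collagen fibrils, held none in any library within 5 kb. Dcn (decorin), of the same family, held it in 6 libraries at percentiles from 4.84 to 72.9. With a margin of 10 kb, Lum held MEF2C in 2 libraries and Bgn in 3. Of the crosslinking oxidases, which join collagen and elastin chains, Lox held MEF2C in 6 libraries, Loxl1 in 7 and Loxl2 in 4. The Loxl1 peaks were low, from percentile 7.29 to 54.2, and with lists of equal length only 2 libraries held one.

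Among the proteases and their inhibitors, Timp3 stood apart. It encodes the matrix-bound tissue inhibitor of metalloproteinases, and its highest peak was at percentile 92.5 and 95.2 under siControl, 88.0, 97.4 and 97.1 under siJunb, and 91.5, 97.3 and 95.7 under siH1f0. It held 3 regions in all 8 libraries, the strongest (chr10:86297454-86318551, merged over the lists) covering its start site. The promoter window itself lay under MEF2C in 4 libraries, siControl replicate 2, siJunb replicate 2 and siH1f0 replicates 1 and 2. The 3 regions also lie within the body or 5 kb margin of Syn3, so they cannot be assigned to Timp3 alone. Timp2 held MEF2C in 7 libraries and Timp1 in 3. Mmp14, a membrane-anchored protease that activates other metalloproteinases, held it in 7 libraries but at percentile 48.9 at most, and Mmp2 (gelatinase A) in 2. Fap, a surface protease of activated fibroblasts, held it in 3 libraries, none of them siControl.

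All 4 receptor and surface genes held MEF2C in both siControl libraries. Pdgfrb, the receptor of PDGF-B, stood at 93.2 and 94.7 under siControl, 84.9, 98.0 and 95.6 under siJunb, and 94.6, 97.7 and 92.8 under siH1f0, in a region inside the gene and 16 kb from its nearest end. Pdgfra, a receptor that marks mesenchymal fibroblasts, stood lower, at 60.2 and 52.5 under siControl, 23.6, 65.2 and 72.8 under siJunb, and 68.4, 77.7 and 43.4 under siH1f0. Its merged region (chr5:75152066-75157377) covered the start site, but only the siH1f0 replicate 2 peak reached the promoter window. Ddr2, a collagen receptor, stood at 76.2 and 74.7 under siControl, 55.2, 86.6 and 92.6 under siJunb, and 73.0, 81.2 and 55.0 under siH1f0. The strongest Ddr2 region (chr1:169967222-169972376) lay at the far end of the gene, 119 kb from the start site, and within 5 kb of Hsd17b7.

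Thy1, the surface antigen CD90, stood at 31.2 and 93.5 under siControl, 88.0, 98.4 and 96.5 under siJunb, and 95.1 and 97.6 in siH1f0 replicates 1 and 2, with none counted in replicate 3. A merged region 3.93 kb beyond the gene (chr9:44052512-44055892) was held by all 8 libraries at percentile 88.0 to 98.5, but the peaks of siControl replicate 1 and siH1f0 replicate 3 in it lay more than 5 kb away. With a margin of 10 kb Thy1 held MEF2C in all 8 libraries, and with 1 kb in 3. The low siControl value and the empty siH1f0 cell of Thy1 thus came from the margin.

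The intracellular markers were present in every library. Vim encodes vimentin, the intermediate filament of mesenchymal cells. Its percentiles were 52.2 and 75.8 under siControl, 40.8, 91.3 and 86.9 under siJunb, and 88.8, 87.7 and 55.0 under siH1f0, in a region of 9527 bp over the start site (chr2:13570078-13579604). The 3 lowest Vim values were those of the short lists. S100a4, a calcium-binding protein of motile fibroblasts, stood at 19.7 and 83.7 under siControl, 55.2, 48.9 and 93.5 under siJunb, and 62.6, 68.8 and 43.4 under siH1f0. Its region (chr3:90602471-90606239) lies within 5 kb of S100a3 and S100a5 as well.

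Whether knockdown of Junb, which encodes an AP-1 transcription factor, went with other MEF2C occupancy was read first from groups that do not overlap. Col3a1 alone held MEF2C in both siControl libraries and in no siJunb library, beside 1.15% of all genes in that direction, and no matrix gene held it in all siJunb libraries and no siControl library, beside 0.704%. One gene of 38 (2.63%) is near that background. Col3a1 kept this pattern with lists of equal length (beside 1.39%). Without the lower 50% of each list it did not, since siControl replicate 1 no longer held MEF2C there. Leaving out libraries cannot undo the pattern. Without the 3 short lists it stood beside 5.86% of all genes, with siControl replicate 2 against siJunb replicates 2 and 3. Over both directions the count of 1 gene stood beside 1.85% of all genes. It rose to 2 (5.26%) without siControl replicate 1 (beside 5.88%), siJunb replicate 2 (beside 4.24%) or siJunb replicate 3 (beside 2.79%). It rose to 7 (18.4%, beside 5.96%) without siControl replicate 2, when 6 genes absent from siControl replicate 1 were added.

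Scores of all genes were then compared with limma, where the score is the percentile of the highest peak among the 11731 top peaks of each list and 0 where there is none. Of 10469 genes tested, 61 (0.583%) differed between siJunb and siControl at an adjusted p under 0.05, with 18 higher and 43 lower under siJunb. None of the 33 matrix genes tested was among them. An unadjusted p under 0.05 was found for 2 of the 33, beside 1010 of the 10469 genes. The median difference was 2.8 points over the matrix genes and 2.4 points over all genes tested. Both siControl libraries held Col3a1 among the top peaks, at scores of 26.7 and 10.6, and no siJunb library did, a difference of -18.6 points (SE 5.48, limma adjusted p = 0.276). Col5a2 had scores of 12.5 and 10.6 under siControl and 74.4, 26.6 and 81.5 under siJunb, a difference of 49.3 points (SE 15.7, limma adjusted p = 0.323). These groups of scores did not overlap, and neither gene passed the adjusted threshold.

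With 1 library left out, the Col3a1 difference ranged from -26.7 to -10.6 points and that of Col5a2 from 39.0 to 66.4 points, so that neither turned. Without siControl replicate 2, the difference was -26.7 points for Col3a1 and -39.2 points for Col5a1. There siControl was 1 library, a short list, and the knockdown groups alone gave the spread, so only the differences are given. Without siJunb replicate 2, Col5a2 passed (66.4 points, limma adjusted p = 0.0181), beside 0.973% of all genes tested. Measured as log2 of the covered bases instead, the Col5a2 difference was -0.474 (limma adjusted p = 0.967), that is, of the opposite sign. Of the genes at the top of the lists, Ccn1 differed by 0.283 points (SE 3.61), Ccn2 by 1.84 (SE 3.70) and Col4a2 by 1.02 (SE 3.67).

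Knockdown of H1f0, the gene of H1.0, gave no matrix gene in all siH1f0 libraries and no siControl library (beside 0.621% of all genes) or the reverse (beside 0.183%). Without siControl replicate 2 there were 9 such genes (23.7%), all toward siH1f0 and all absent from siControl replicate 1, among them Col1a1, Fn1, Postn and Tnc, while the share of all genes in that direction rose as well, to 6.92%. Without siH1f0 replicate 1 there was 1, Fap, beside 1.24%. In limma, 0 of 10469 genes passed, with 434 at an unadjusted p under 0.05, and among the 33 matrix genes tested 1 had an unadjusted p under 0.05 and the smallest adjusted p was 0.812. The median difference was 3.27 points over the matrix genes and 0 over all genes. Col3a1 scored 0, 0.989 and 0 under siH1f0, a difference of -18.3 points from siControl (SE 5.48, limma adjusted p = 0.812). Without siControl replicate 2 the difference was -26.3 points, again with 1 siControl library and the spread taken from the knockdown groups. The Col3a1 peak of siH1f0 replicate 1 was too low in its list to enter the top 11731, and that of replicate 2 entered near the bottom.

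The 2 knockdowns were also compared directly. No matrix gene held MEF2C in all libraries of one and none of the other, beside 0.352% of all genes toward siJunb and 0.973% toward siH1f0. Leaving out siJunb replicate 2, siJunb replicate 3 or siH1f0 replicate 3 gave 1 such gene each (Lox, Postn and Col3a1, all toward siH1f0, beside 3.05%, 1.41% and 2.92% of all genes). In limma, 57 of 10469 genes (0.544%) differed and none of the 33 matrix genes, of which the smallest adjusted p was 0.427, for Col5a2. Its scores were 20.5, 17.7 and 13.7 under siH1f0, so that siJunb was 43.5 points higher (SE 14.1, limma adjusted p = 0.427). Without siJunb replicate 2 it passed (60.7 points, limma adjusted p = 0.0158), beside 1.01% of all genes tested. The comparisons with siControl share the siControl libraries and are not independent of each other. For Col5a2, siH1f0 differed from siControl by 5.77 points (SE 15.7).

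H1.0 lay over part of the body of all 38 genes in at least 1 library, beside 94.4% of all protein-coding genes, and in all 4 libraries over 19, beside 26.9%. The H1.0 lists differed far more from each other than the genes did, covering 28.6 and 93.0 Mb in the 2 libraries with M file names and 911 and 1110 Mb in the others, so states were compared within a file name series, with 1 library per state in each. The median share of the body under H1.0 was 3.44% in ground replicate 1 and 1.14% in day 1 replicate 2 (M names). Over all genes these medians were 1.22% and 0%. In the other pair it was 32.8% in ground replicate 2 and 42.4% in day 1 replicate 1, beside 36.4% and 41.6%. In the first pair the share was lower at day 1 for 21 genes (beside 49.3% of all genes) and higher for 7 (beside 9.52%). In the second it was lower for 16 (beside 42.1%) and higher for 22 (beside 50.6%). The direction over the group thus differed between the pairs, as it did over all genes. In limma, 0 of 20670 genes and 0 of 38 matrix genes differed between states (20 genes at an unadjusted p under 0.05). Each state joined a short and a broad list in that fit, with no term for the file name series, so it could hardly detect a change.

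In the pair with M names the day 1 list was the shorter by far (28.6 Mb, against 93.0 Mb in the ground state), and in the other pair it was the shorter too (911 Mb, against 1110 Mb). With lists cut to equal covered length, 24 matrix genes were tested, and limma's difference was toward day 1 for 16 and toward the ground state for 8, with 0 past the threshold (median 0.81 points, beside 0.335 over all genes tested). With lists as deposited, 7 matrix genes (18.4%) had less H1.0 at day 1 in both pairs, which is near the 19.7% of all genes: Ccn1, Ccn2, Vim, Timp3, Mmp14, Loxl1 and Bgn. Col1a1, Thbs2 and Pdgfrb had more in both (7.89%, beside 4.52%). Their values are given as a description. Ccn2 was under H1.0 over 85.3% of its body in ground replicate 1 and 0% in day 1 replicate 2, and over 100% in ground replicate 2 and 86.4% in day 1 replicate 1. Ccn1 went from 28.9% to 0% and from 62.3% to 42.7% in the same pairs, and Vim from 4.65% to 0% and from 69.1% to 31.3%. Col1a1 went from 0% to 4.51% and from 18% to 57.7%. Ccn1, Ccn2 and Vim held MEF2C at day 1 in all 8 libraries, beside 16.1% of all genes, and this was part of the rule for giving values. Bgn, also lower in both pairs, held none. A link between MEF2C and H1.0 at these genes was not tested. At Ccn2 the limma difference was -49.5 points of body share (SE 33.2, limma adjusted p = 1), smaller than 2 SE. With 1 library per state in a pair, the differences have no replicate check.

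**Figure D4:**
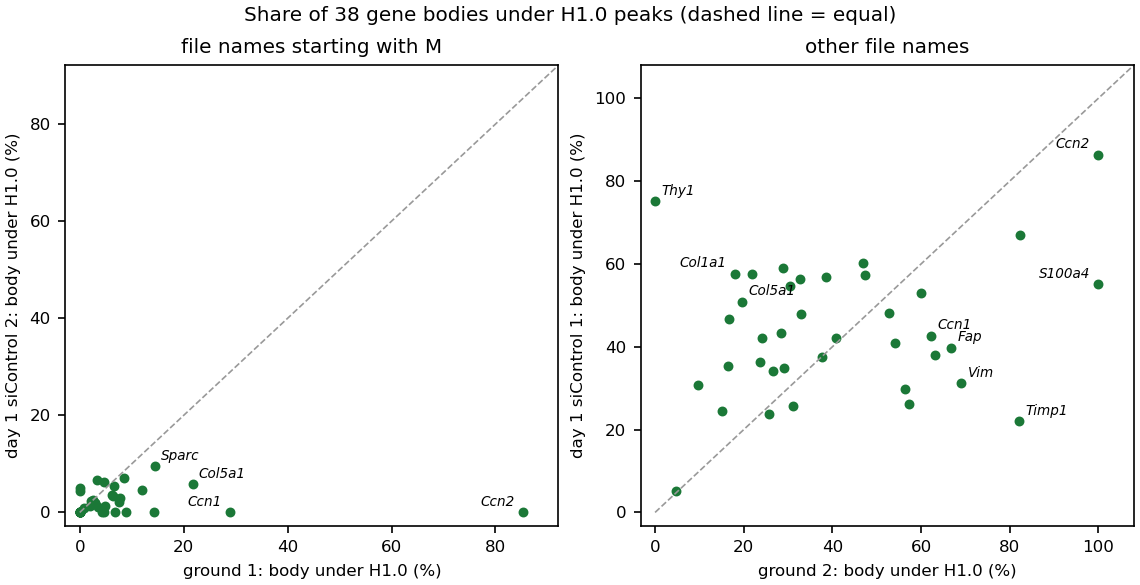
Share of each of the 38 gene bodies under H1.0 peaks (%) in the ground state (horizontal axes) and at day 1 under siControl (vertical axes), for the libraries with M file names (left) and the others (right), 1 point per gene. Ccn2, Ccn1 and Vim lie below the dashed line of equality in both panels, although Vim is close to the origin and unlabelled in the left one.

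Over start sites, 1 ground-state library held H1.0 at nearly all matrix genes with a promoter window. In ground replicate 2, 23 of the 24 matrix genes had a window touched by H1.0 by 1 bp or more (95.8%, beside 57.9% of genes with a window), all but Col6a2. Some were only grazed, with 21 bases under H1.0 at Pdgfra and 68 at Col4a1. In day 1 replicate 1 the number was 14 (58.3%, beside 58.6%). Genes with a window touched by H1.0 in that ground library and not in that day 1 library numbered 10, beside 14.8% of genes. They were Bgn, Col1a2, Col4a1, Col4a2, Ddr2, Mmp14, Pdgfra, S100a4, Timp2 and Vim. Of the matrix genes 1, Col6a2, did the opposite, beside 15.5%. In the libraries with M names 3 genes (12.5%, beside 10.6%) had a window touched by H1.0 in ground replicate 1 and 2 (8.33%, beside 4.08%) in day 1 replicate 2. The Vim window, under MEF2C in all 8 libraries, lay under H1.0 in both ground libraries and in neither day 1 library.

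MEF2C and H1.0 lists also met on the same stretches. Of the 22 regions with MEF2C in all 8 libraries, 15 (68.2%) touched an H1.0 peak of ground replicate 1, beside 36.8% of such regions at all genes, and 8 (36.4%) one of day 1 replicate 2, beside 21.3%. In the 2 broad lists the numbers were 19 (86.4%, beside 93.4%) for ground replicate 2 and 21 (95.5%, beside 97.7%) for day 1 replicate 1. Wider regions touch more peaks, and the regions at matrix genes were wider, as given above. Several of the 22 regions lay in the same gene. The part of width was not tested.

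H3K9me3 lay over part of the body of 16 of the 38 genes in at least 1 library (42.1%, beside 30.2% of all genes). In all 4 libraries it lay over part of 4 (10.5%, beside 11.6%), Ddr2, Timp2, Fbn1 and Tnc. By library the share was 13.2% (beside 12.7%) and 39.5% (beside 27.4%) in ground replicates 1 and 2, and 18.4% (beside 19.5%) and 34.2% (beside 23.8%) in day 1 replicates 1 and 2, so that it was above the background in the 2 broader lists and near it in the 2 narrower ones. Ddr2 had most, at 8.53% and 18.4% of the body in the ground state and 9.56% and 16.2% at day 1. Timp2 followed at 7.61% and 11%, and 8.53% and 13.2%. Dcn (14.8% and 14.6%) and Sparc (13.1% and 9.77%) were marked only in ground replicate 2 and day 1 replicate 2, the broader lists. Col1a1, Col1a2, Col3a1, Vim, Thy1, Ccn1, Ccn2 and Postn had none in any library. Tnc and Col4a2 were lower at day 1 in both file name series, beside 3.11% of genes, and Timp2 and Loxl2 were higher in both, beside 6.6%. In limma 4 of 6600 genes (0.0606%) and none of the 16 matrix genes tested differed between the states.

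**Figure D5:**
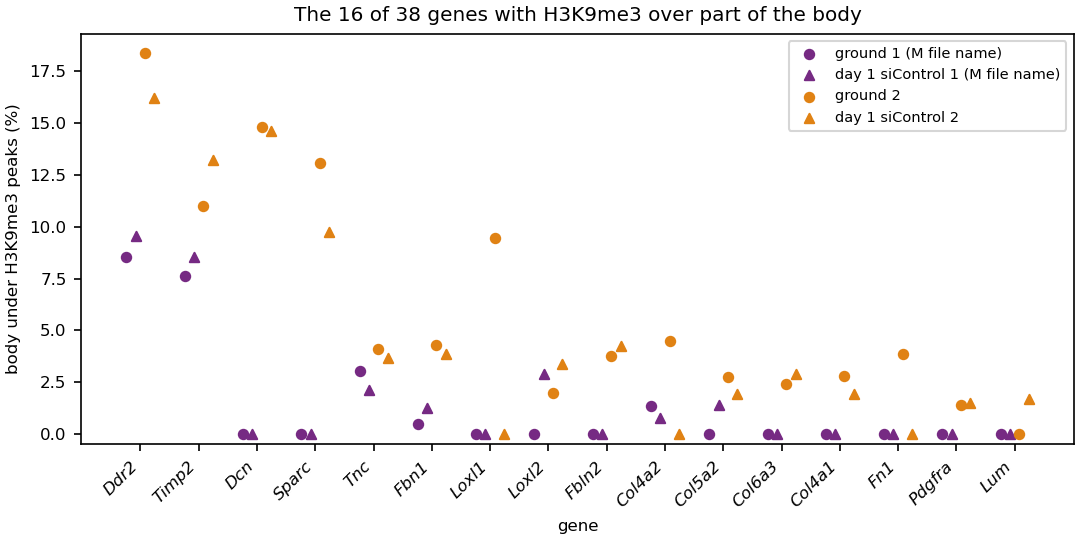
Share of the gene body under H3K9me3 peaks (vertical axis, %) for the 16 matrix genes with any (horizontal axis), in ground-state (circles) and day 1 siControl libraries (triangles), coloured by file name series. Ddr2 and Timp2 are marked in all 4 libraries, and Dcn and Sparc in the 2 orange ones alone.

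For comparison, 86 further genes of the matrix and of its integrin receptors (10 of the 86) were read in 8 lists. Both siControl libraries held MEF2C at 46 of the 86 (beside 28.4% of all protein-coding genes), all 8 libraries at 30 (beside 16.1%) and no library at 9 (beside 31.6%). The counts that follow are for all 8 libraries and stand beside the same 16.1%. Laminins and other basement membrane genes had it in all 8 libraries at 6 of 10 (Lama4, Lama5, Lamb1, Lamc1, Nid2 and Hspg2, the gene of perlecan), as the type IV collagens did. Integrins, the cell-surface receptors of matrix, had it at 7 of 10, among them Itgb1 and Itgav. Other collagens had it in all 8 at 0 of 10, and other small leucine-rich proteoglycans at 0 of 7, the family of Lum, Bgn and Dcn. Elastic fibre genes had it at 4 of 14, other matricellular genes at 4 of 11, collagen-processing enzymes at 4 of 13 and other proteases at 5 of 11. Sarcomere genes had it at 5 of 18, housekeeping genes at 8 of 15 and hepatocyte genes at 0 of 10. The lists differ in gene length, and expression was not measured, so no order among them was tested.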

How the data were processed

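CUT&RUN peak lists of 16 of the 24 samples in the labels were used, and the 8 IgG samples were not analysed here. The submitters' processing notes name Bowtie2 and SEACR and the build mm10, and no versions. There is 1 deposited list per sample, and it gives signal, that is coverage summed over a peak and its maximum within it, with no header and no scaling to depth visible in the values. The labels state 30 M reads and about 250000 cells per sample; how many aligned is not given in the sources used here. The depth behind each peak is therefore unknown, and precision was judged from the spread between samples. Whether IgG set the peak threshold was not given either.

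Autosomal, X and Y peaks were placed on RefSeq genes of GRCm38.p6, the assembly of mm10, in Python 3.11.15. That table gives gene ends without exons. Strand came from a RefSeq table of promoter windows, which held 24 of the 38 genes. A peak was given its average rank by maximum signal, as a percentile of its list. For scores, each list was cut to its 11731 highest peaks. Scores of the 8 MEF2C libraries were fitted together over protein-coding genes with a score above 0 in at least 1 library, with limma 3.58.1 (eBayes, Benjamini-Hochberg adjustment over all genes tested, threshold 0.05). Shares of gene bodies were fitted likewise over the 4 libraries of H1.0 or H3K9me3. The code of the fits was run on simulated data with large planted shifts and noise of the same size for every gene. Those data had neither the many zeros nor the file name series seen here. That run does not show how well the fits detect changes in these data. Coordinates are 1-based.

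Any of the 38 genes could be named. Values in every library are given for genes present in all 8 MEF2C libraries or in one group and not another, and for Col1a1, Col1a2, Postn, Vim, Thy1, Pdgfra, Fn1 and Ccn2. The values of Col5a1, Thbs2, Timp2, Ddr2, Dcn, Sparc and Loxl1 that go beyond this were named after they were seen. The genes and lists were chosen with earlier results of these data known. What was repeated between the biological replicates is not stated in the labels, so the spread that p-values rest on could in part be technical.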

Additional observations from a re-analysis of the deposited data

How the results depend on the processing

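The counts of genes rested on list length. Genes with MEF2C in both siControl libraries numbered 12 when the lower 50% of each list was left out. Without the 3 lists of M file names, a setting added after the data were seen, only siControl replicate 2 remained, and it held 34. Numbers ran from 20 to 34 with 1 library left out, where 34 again counts siControl replicate 2 alone. Genes with MEF2C in all libraries numbered 25 without those 3 lists and 12 to 17 with 1 library left out. Genes held by all libraries of one group and none of the other, siJunb and siControl, numbered 0 without the lower 50%, 2 without the 3 lists and 1 to 7 with 1 library left out. For siH1f0 and siControl they numbered 1 around gene ends only (Loxl1), 1 without the 3 lists and 0 to 9 with 1 library left out, and for siJunb and siH1f0 2 without the 3 lists and 0 to 1 with 1 library left out. Around gene ends only, the gene held by both siControl and no siJunb libraries was Col5a1 in place of Col3a1. With 1 siJunb or siH1f0 library left out, matrix genes past the limma threshold numbered 0 to 1 for siJunb against siControl. They numbered 0 for siH1f0 against siControl and 0 to 1 for siJunb against siH1f0. For H1.0 and H3K9me3 they numbered 0 in every setting that kept all libraries. The Col3a1 difference of siH1f0 from siControl was 0.33 points around gene ends only (limma adjusted p = 1). With log2 covered bases, the Col5a2 difference was -0.474 for siJunb from siControl (limma adjusted p = 0.967) and -1.26 for siJunb from siH1f0 (limma adjusted p = 0.681). The causes were not tested.

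Over all genes, limma calls for siJunb against siControl ranged from 0 to 76 in settings other than leaving out a library, with 0 by log2 covered bases, 6 around gene ends, 10 on whole lists and 32 with no filter, and from 35 to 298 with 1 library left out. The ranges were 0 to 9 and 0 to 250 for siH1f0 against siControl, 0 to 65 and 0 to 135 for siJunb against siH1f0, and 0 to 4 and 0 to 155 for H3K9me3. With the replicate number as a block, 0 matrix genes passed in any comparison, and the 61, 57 and 4 genes called without it became 0. Deviations of same-numbered libraries correlated at -0.131 to 0.179, so the numbers do not pair the samples. Libraries of the same file name series correlated at 0.0107 to 0.22 and those of different series below 0, where the 2 siControl deviations are mirror images by construction. With the file name series as a block, 0 matrix genes passed in any comparison, and all genes called were 47 for siJunb against siControl, 0 for siH1f0 against siControl, 45 for siJunb against siH1f0, 0 for H1.0 and 0 for H3K9me3.

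Depth is unknown, and MEF2C below the peak threshold was not detectable. With 3 against 2 libraries, presence at a single gene cannot reach significance in an exact permutation test.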
